A study of Homo sapiens with 4 samples.

Results

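GATA2, TBX3 and the transcription factors that set intestinal lineage were followed in the colorectal cancer line HCT116, established from a human tumour, after knockout of C14orf159 (DGLUCY in current nomenclature, a protein of the mitochondrial matrix). The 9 genes, of 26255 in the deposited tables, were picked by symbol: the zinc finger factors GATA2, GATA3 and GATA6, the T-box factor TBX3, the homeobox factors CDX1 and CDX2, the nuclear receptor HNF4A, and the Krüppel-like factors KLF4 and KLF5. They were picked with the comparison of knockout and control cells already known: GATA2 was among the 14 genes that had passed the test over all genes, and TBX3 had stood close behind it. Their differences between knockout and control cells are therefore given as a description, with no test read from them. Poly(A)-selected RNA was sequenced from 2 libraries of C14orf159 knockout cells (KO) and from 2 libraries of empty vector-transfected control cells (EV), all of the same line. The file headers call the controls AAVS1, a site often targeted as a neutral control, and the knockouts sgDGLUCY, and it was not resolved whether a guide to AAVS1 or only an empty vector was used in the controls. The labels do not say whether the libraries of a group came from separate cultures or clones, so the spread between them may be technical.

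GATA factors bind the GATA core sequence through zinc fingers and act in many lineages: GATA2 is best known from blood stem and progenitor cells and from endothelium, GATA3 from T cells and the mammary epithelium, and GATA6 from endoderm and the gut. CDX1 and CDX2 are homeobox factors that specify and maintain intestinal epithelium, and HNF4A is a nuclear receptor that activates absorptive cell genes in the gut and metabolic genes in the liver. In the intestine KLF5 marks proliferating crypt cells, whereas KLF4 marks differentiated cells. TBX3 acts mainly as a repressor in limb and mammary development, and in humans its mutation causes ulnar-mammary syndrome.

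C14orf159 itself had 2.52 and 10.8 FPKM in KO replicates 1 and 2, against 16.2 and 16.4 FPKM in the EV libraries, so the KO libraries held 15.5% and 66.2% of the EV mean. FPKM is fragments per kilobase of transcript and per mega (M) fragments, so levels of different genes can be set side by side. The libraries held an estimated 12.47 to 13.39 M fragments, a rough figure taken from the value of 1 fragment in low genes. The KO libraries stood further from each other than the EV libraries did. Over 9221 genes that averaged 5 FPKM or more, the median gap between replicates was 0.158 on the log2(FPKM + 1) scale in KO and 0.0644 in EV cells, and the gap was wider in KO for 74.9% of them. Each KO library is therefore also given alone.

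Marker genes of several cell types were examined. Of 10 epithelial markers chosen for a colorectal line, 7 had at least 1 FPKM in every library. These were EPCAM, KRT8, KRT18, KRT19, CDH1, CLDN3 and CLDN4, whereas the intestinal markers CDH17, LGALS4 and VIL1 had at most 0.272 FPKM in any library. The markers thus describe an epithelial line and cannot settle its origin. The 12 markers of blood and endothelial cells, where GATA2 is also expressed, summed to 0.336 and 0.276 FPKM in KO and to 0.121 and 0.0595 FPKM in EV libraries. Among them PTPRC, CD34, KIT, HBB and CD3E were listed at 0 throughout. The 6 markers of T, mammary and trophoblast cells summed to 0.139 and 0.106 FPKM in KO and to 0.220 and 0.256 FPKM in EV libraries. The 5 hepatocyte markers summed to 0.602 and 0.272 FPKM in KO and to 0.372 and 0.402 FPKM in EV libraries. The 8 markers of fibroblasts and smooth muscle summed to 14.5 and 14 FPKM in KO and to 10.6 and 12 FPKM in EV libraries, carried by COL1A1, ACTA2 and DES, with COL1A2, DCN and LUM at 0.

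The sequences before the starts of GATA2, its antisense neighbour GATA2-AS1 and HNF4A are shown first, because the first pair was lower together in both KO libraries and HNF4A was low in KO replicate 1 alone. Of the 9 genes, 7 had promoter entries in the RefSeq table (build GRCh38.p14), with 15 annotated starts between them. The entries missing were those of TBX3 and CDX1. Each sequence gives the 250 bases before an annotated start, 5′ to 3′ on the strand of its gene. Capitals mark a match, on either strand, to any of 6 motifs. They were AGATAA for zinc finger factors of the GATA family, TTTATG for CDX factors, CTTTGA for the Wnt effectors of the TCF/LEF family, AAGTCCA for the receptor HNF4A, GGTGTGA for T-box factors and GGGTGTG for Krüppel-like factors. No matches overlap in the sequences shown. The windows are GATA2 inner start, chr3:128488531-128488780, minus strand; GATA2 outer start, chr3:128493202-128493451, minus strand; GATA2-AS1, chr3:128488953-128489202, plus strand; HNF4A upstream start, chr20:44355449-44355698, plus strand; and HNF4A downstream start, chr20:44400989-44401238, plus strand.
GATA2 inner start: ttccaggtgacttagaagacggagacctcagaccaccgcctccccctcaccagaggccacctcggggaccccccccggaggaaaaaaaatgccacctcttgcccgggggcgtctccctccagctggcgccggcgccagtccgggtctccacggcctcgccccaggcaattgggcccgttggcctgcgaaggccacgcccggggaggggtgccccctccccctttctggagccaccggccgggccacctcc
GATA2 outer start: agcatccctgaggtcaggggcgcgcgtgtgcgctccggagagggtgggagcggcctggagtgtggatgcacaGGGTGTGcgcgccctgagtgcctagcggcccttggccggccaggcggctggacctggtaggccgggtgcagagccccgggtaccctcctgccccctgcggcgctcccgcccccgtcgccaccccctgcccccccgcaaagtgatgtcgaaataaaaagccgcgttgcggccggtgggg
GATA2-AS1: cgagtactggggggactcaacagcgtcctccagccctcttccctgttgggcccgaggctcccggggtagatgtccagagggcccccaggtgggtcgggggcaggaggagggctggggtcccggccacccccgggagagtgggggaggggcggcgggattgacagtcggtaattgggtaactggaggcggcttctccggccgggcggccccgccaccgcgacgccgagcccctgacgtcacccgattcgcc
HNF4A upstream start: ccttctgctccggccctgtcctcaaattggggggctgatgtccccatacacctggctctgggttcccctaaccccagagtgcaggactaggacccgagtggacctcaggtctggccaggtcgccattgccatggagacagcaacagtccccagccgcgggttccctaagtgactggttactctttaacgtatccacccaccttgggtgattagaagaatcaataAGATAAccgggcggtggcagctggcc
HNF4A downstream start: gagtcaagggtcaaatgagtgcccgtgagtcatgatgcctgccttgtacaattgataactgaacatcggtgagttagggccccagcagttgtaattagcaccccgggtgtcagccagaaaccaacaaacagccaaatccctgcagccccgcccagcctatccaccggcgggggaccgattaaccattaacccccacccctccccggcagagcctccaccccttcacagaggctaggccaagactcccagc

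The GATA2 and GATA2-AS1 windows were rich in G and C, at 71.2%, 72.8% and 72.4% in the order shown, against a median of 58% over 35116 promoter windows. They held 18, 24 and 22 CpG dinucleotides, against a median of 11. The start of GATA2-AS1 lies 673 bases from the inner GATA2 start on the opposite strand, and the outer GATA2 start lies 4671 bases from the inner one. The outer window held 1 match to GGGTGTG, beginning 178 bases before the start, a motif found in 6.63% of all windows. The inner window and that of GATA2-AS1 held no match to any of the 6 motifs. At HNF4A, AGATAA began 26 bases before the upstream start, a motif that occurs in 9.17% of all windows, and the downstream window held no match. Among the windows not shown, that of CDX2 held AGATAA once and CTTTGA once. Of the 6 GATA3 windows, 2 held GGGTGTG and 1 held CTTTGA, a motif that occurs in 11.2% of all windows. The windows of GATA6, KLF4 and KLF5 held no match. Such matches describe the letters and do not show binding. Only these exact letters were searched, on either strand, so a window without a match may still hold another form of a site.

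GATA2 had 3.18 and 3.24 FPKM in the KO libraries, against 10.8 and 12 FPKM in the EV libraries. Both KO libraries lay far below both EV libraries and nearly on the same value. The means were 3.21 ± 0.0436 FPKM in KO and 11.4 ± 0.872 FPKM in EV cells (SD, n = 2 each), which leaves 28.1% of the EV level and a difference of -1.56 on the log2(FPKM + 1) scale (limma SE 0.0981). Taken alone, KO replicates 1 and 2 held 27.8% and 28.3% of the EV mean, and a wider gap between the KO replicates was seen in 93.1% of tested genes. With the median length of its protein-coding transcripts, the GATA2 values correspond to about 74 and 78 fragments in the KO and 264 and 303 fragments in the EV libraries. In bulk RNA, fewer cells that express a gene and less RNA of it per cell cannot be told apart. GATA2 was the 1 gene of the 9 to pass the test by which it was chosen, a share of 0.0551% of 12701 tested genes being called lower in KO cells (limma with a mean-variance trend, Benjamini-Hochberg adjusted p = 0.0428). That call ended without EV replicate 1 (adjusted p = 0.134), without EV replicate 2 (0.244), without small RNA genes (0.055) and without the filter on low values (0.165).

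**Figure D1:**
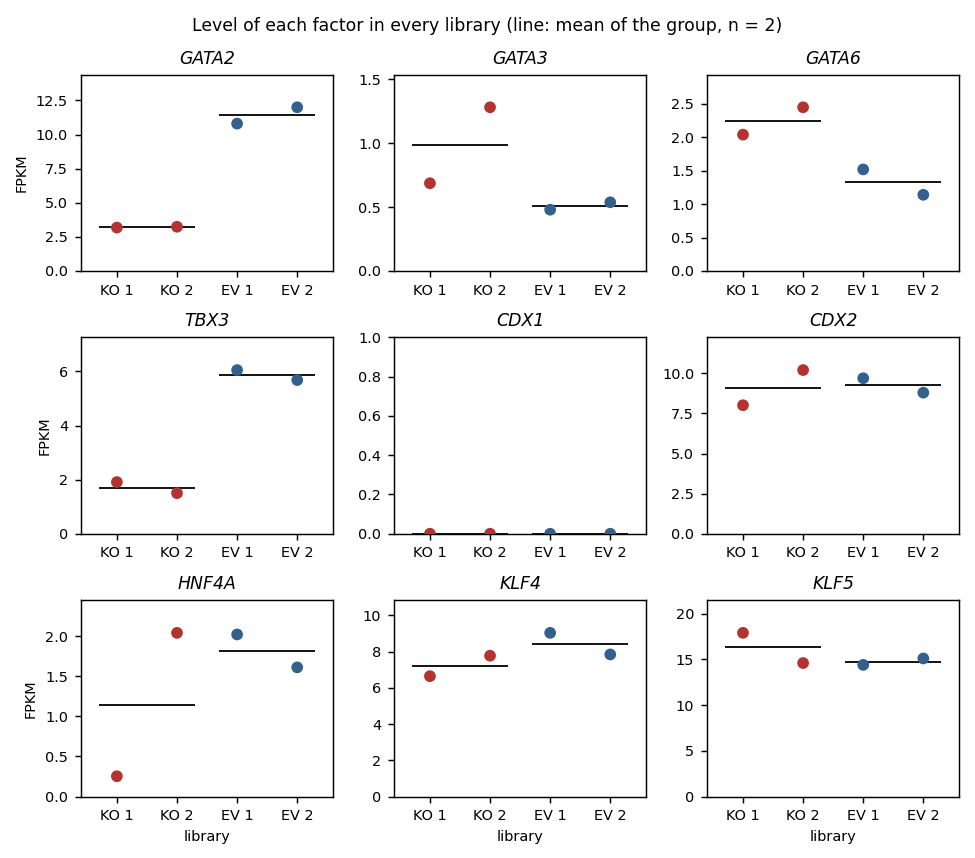
FPKM of the 9 factors in each of the 4 libraries (x axis: KO replicates 1 and 2, then EV replicates 1 and 2; y axis: FPKM, starting at 0, with its own range in each panel; line: mean of the 2 libraries of a group). GATA2 and TBX3 lie lower in both KO libraries (3.18 and 3.24, and 1.91 and 1.5 FPKM), HNF4A is low in KO replicate 1 alone (0.253 FPKM), and CDX1 is listed at 0 throughout.

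GATA2-AS1, a non-coding RNA on the opposite strand that overlaps GATA2 in 3974 bases of the GENCODE annotation, had 1.28 and 1.90 FPKM in KO and 3.54 and 3.35 FPKM in EV libraries. It lay below both EV libraries in both KO libraries, at 37.3% and 55.3% of the EV mean, which is less of a difference than that of GATA2 in each library. The sources used here do not say whether the authors' quantification used strand, so reads of GATA2 and GATA2-AS1 may have been mixed. The other antisense genes named after a member were hardly detected: GATA3-AS1 had at most 0.131 FPKM and GATA6-AS1 at most 0.174 FPKM, and HNF4A-AS1 was listed at 0 in all libraries. The antisense genes were added after the values were seen.

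The other GATA factors lay on the opposite side. GATA6 had 2.04 and 2.45 FPKM in KO and 1.52 and 1.14 FPKM in EV libraries, means of 2.25 ± 0.294 and 1.33 ± 0.266 FPKM (SD, n = 2 each). Both KO libraries were above both EV libraries, with a log2(FPKM + 1) difference of 0.48 (SE 0.152). Alone, KO replicate 1 gave 0.39 and KO replicate 2 gave 0.57. GATA3 had 0.686 and 1.28 FPKM in KO and 0.479 and 0.537 FPKM in EV libraries. The groups did not overlap here either, but the level stayed under the minimum for testing (1 FPKM in at least 2 libraries), and the values rest on about 23 and 44 fragments in KO and 17 and 19 in EV libraries. As a level per length, GATA2 was thus the most abundant GATA factor in both groups, at 3.21 FPKM in KO cells beside 2.25 FPKM of GATA6, and at 11.4 FPKM in EV cells beside 1.33 FPKM of GATA6.

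TBX3 had 1.91 and 1.5 FPKM in the KO libraries, against 6.05 and 5.68 FPKM in the EV libraries. The groups were well apart, with means of 1.70 ± 0.287 FPKM in KO and 5.86 ± 0.260 FPKM in EV cells (SD, n = 2 each). KO replicates 1 and 2 held 32.5% and 25.6% of the EV mean, close to the shares left of GATA2. The difference was -1.35 on the log2(FPKM + 1) scale (SE 0.125), with -1.24 and -1.46 in the KO libraries taken alone. The values correspond to about 106 and 86 fragments in KO and 351 and 339 in EV libraries.

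The intestinal homeobox factors showed no such separation. CDX2 had 8.01 and 10.2 FPKM in KO and 9.69 and 8.79 FPKM in EV libraries. The KO libraries lay on either side of the EV libraries, at 86.6% and 111% of the EV mean, and the group difference was -0.03 on the log2(FPKM + 1) scale (SE 0.136). That sign turned without KO replicate 1 (0.13) and without EV replicate 1. CDX1, the paralog of CDX2, was listed at 0 in all 4 libraries.

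HNF4A had 0.253 FPKM in KO replicate 1 and 2.04 FPKM in KO replicate 2, against 2.02 and 1.61 FPKM in the EV libraries. KO replicate 1 stood far below the other 3 libraries, at 13.9% of the EV mean, whereas KO replicate 2 was at 112%. On the log2(FPKM + 1) scale the KO libraries differed from the EV mean by -1.17 and 0.11. The gap of 1.28 between the KO replicates was exceeded by 0.976% of tested genes, and the EV replicates were 0.21 apart. The low value rests on about 5 fragments, against about 40 in KO replicate 2 and 40 and 33 in the EV libraries. The group means of 1.14 ± 1.26 FPKM in KO and 1.82 ± 0.290 FPKM in EV cells (SD, n = 2 each) thus hide a split within the KO group. KO replicate 1 is also the library with less C14orf159, and the part of that in the HNF4A value was not tested.

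**Figure D2:**
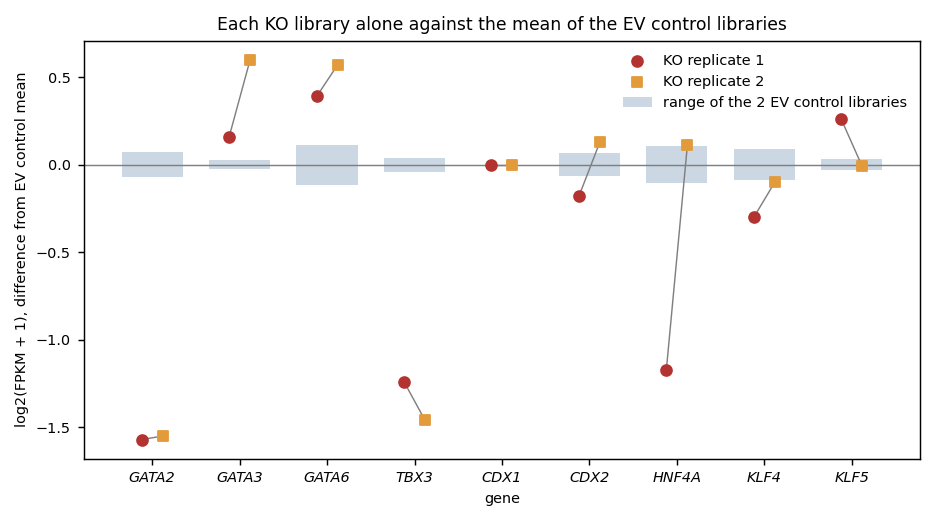
Difference of each KO library from the mean of the EV libraries for the 9 factors (x axis: gene; y axis: log2(FPKM + 1), circles for KO replicate 1, squares for KO replicate 2; shaded bars: range of the 2 EV libraries about their mean). The symbols of GATA2 almost coincide (-1.57 and -1.55), those of TBX3 are close (-1.24 and -1.46), and those of HNF4A are far apart (-1.17 and 0.11).

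The Krüppel-like factors were among the higher expressed members and differed little. KLF5 had 17.9 and 14.6 FPKM in KO and 14.4 and 15.1 FPKM in EV libraries, with KO replicate 2 between the EV libraries and KO replicate 1 above them at 122% of their mean. KLF4 had 6.64 and 7.77 FPKM in KO and 9.03 and 7.84 FPKM in EV libraries. Both KO values of KLF4 were below both EV values, but the nearest of them, 7.77 in KO replicate 2 and 7.84 in EV replicate 2, were almost equal. The log2(FPKM + 1) differences were 0.13 for KLF5 (SE 0.118) and -0.20 for KLF4 (SE 0.120).

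In all, the groups did not overlap for 5 of the 9 genes. GATA3 and GATA6 were higher in both KO libraries and GATA2, TBX3 and KLF4 lower, while CDX2, HNF4A and KLF5 overlapped and CDX1 was at 0. Among all tested genes, 26.5% lay higher in both KO libraries than in both EV libraries and 25.6% lower. A total of 7 members reached the minimum level for testing, and their counts are not read as support since the members were chosen with this comparison known.

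In the order of levels, GATA2 stood at rank 4 in KO and rank 2 in EV cells, GATA6 at rank 5 in KO and rank 7 in EV cells, and TBX3 at rank 6 in KO and rank 5 in EV cells. In KO cells KLF5 was highest with a mean of 16.3 FPKM, followed by CDX2 with 9.11, KLF4 with 7.21, GATA2 with 3.21, GATA6 with 2.25, TBX3 with 1.70, HNF4A with 1.14 and GATA3 with 0.985 FPKM. In KO cells the ranges of TBX3 and HNF4A overlapped, and so did those of HNF4A and GATA3, so these neighbours were not separated. In EV cells KLF5 also came first with 14.7 FPKM, followed by GATA2 with 11.4, CDX2 with 9.24, KLF4 with 8.44, TBX3 with 5.86, HNF4A with 1.82, GATA6 with 1.33 and GATA3 with 0.508 FPKM. CDX2 and KLF4 were the neighbours whose ranges overlapped in EV cells. GATA2 stood above 17.4% of tested genes in KO cells and above 51% in EV cells, and TBX3 above 7.5% in KO and 31.6% in EV cells.

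Genes with patterns like those of GATA2 and TBX3 were ranked by the root mean square difference between log2(FPKM + 1) profiles over the 4 libraries, each centred on its own mean, among 11735 genes. The gene nearest to GATA2 was TBX3 (0.157), almost level with CAPN6 (0.159) and followed by RERG (0.180), CYCSP52 (0.192) and KLK5 (0.218). GATA2 and TBX3 were both picked with the difference between these libraries known, so their nearness is no support for a link between them. CAPN6, a calpain family gene, was listed at 0 in both KO libraries and had 2.67 and 2.35 FPKM in EV libraries. RERG, a gene of a small GTPase related to RAS, had 0.0353 and 0.0343 FPKM in KO and 1.43 and 1.39 FPKM in EV libraries, where the KO values are worth about 1 fragment each. KLK5, a kallikrein protease gene, had 0.694 and 0.552 FPKM in KO and 2.59 and 2.61 FPKM in EV libraries. The processed pseudogene CYCSP52 was listed at 0 in both KO libraries and had 1.31 and 1.27 FPKM in EV libraries, and is uncertain because its parent gene can share its reads.

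The genes nearest to TBX3 were RERG (0.101), PGAM2 (0.104), KLK5 (0.108), CYCSP52 (0.110) and HTR7 (0.122), and GATA2 came at rank 10 (0.157). HTR7, a serotonin receptor gene, had 3.15 and 1.88 FPKM in KO and 8.84 and 7.53 FPKM in EV libraries. PGAM2, the muscle form of phosphoglycerate mutase, had 0.336 and 0.218 FPKM in KO and 1.90 and 1.75 FPKM in EV libraries. With 4 libraries and a pattern that mostly separates the groups, such likeness describes these libraries only. CAPN6, RERG, CYCSP52, KLK5 and PGAM2 reached the minimum level through the EV libraries alone, so they had to be lower in KO libraries. Adding 1 to FPKM also lets unlike shares lie close. KO replicates 1 and 2 held 2.5% and 2.42% of the EV mean for RERG, and 32.5% and 25.6% for TBX3.

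**Figure D3:**
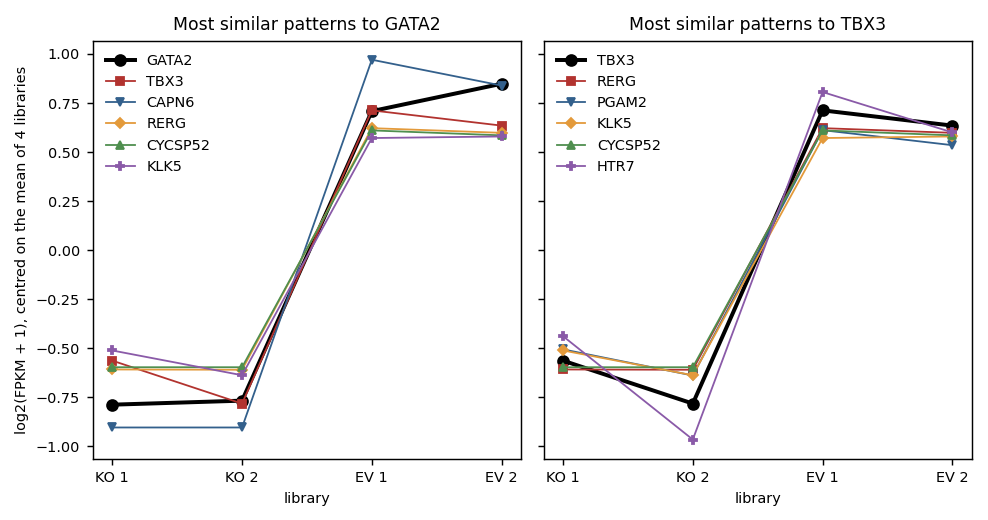
Profiles of GATA2 (left) and TBX3 (right) with the 5 genes whose pattern is most similar to each (x axis: library, KO replicates before EV replicates; y axis: log2(FPKM + 1) centred on the mean of the 4 libraries; the lines join the libraries for reading only). In the left panel TBX3 lies nearest to GATA2 (root mean square difference 0.157), almost level with CAPN6 (0.159).

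Related genes were counted in 8 lists chosen by function and not by how the genes moved, though with earlier results of these data known. Of 130 list genes, 44 reached the minimum level, and 0 passed over all genes tested in either direction (limma, adjusted p under 0.05). At an unadjusted p under 0.05 there were 5 higher and 1 lower, and at that level KO cells were higher for 9.23% and lower for 7.22% of everything tested.

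Among 16 other GATA family and cofactor genes, 7 were tested and 1 was higher at an unadjusted p under 0.05. It was LMO2, an adaptor that joins GATA factors to TAL1 in blood cells, with 4.72 and 3 FPKM in KO and 1.88 and 1.40 FPKM in EV libraries (log2 difference 0.87, SE 0.215, limma adjusted p = 0.209). Its KO values were all above its EV values. TAL1 itself had at most 0.0174 FPKM, GATA4 was listed at 0, and GATA1 and GATA5 had at most 0.105 FPKM. ZFPM1, the GATA cofactor also called FOG1, had 3.36 and 3.72 FPKM in KO and 3.19 and 2.75 FPKM in EV libraries. The median log2 difference of the list was -0.04, beside 0.00 over all tested genes.

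Of 16 other T-box genes, 4 were tested and 0 had an unadjusted p under 0.05, with a median log2 difference of -0.14. TBX18 had 1.87 and 1.98 FPKM in KO and 2.36 and 2.42 FPKM in EV libraries. TBX2, the closest relative of TBX3, had at most 0.367 FPKM in any library. Of the 4 genes reported elsewhere as repressed by TBX3, 0 had an unadjusted p under 0.05. CDH1, which encodes E-cadherin, stood at 29.5 and 24.8 FPKM in KO and 22.8 and 22.9 FPKM in EV libraries. The cell cycle inhibitor gene CDKN1A had 172 and 92.8 FPKM in KO and 163 and 153 FPKM in EV libraries, with KO replicate 2 below the rest. CDKN2A had 27.9 and 25.8 FPKM in KO and 31.4 and 27.2 FPKM in EV libraries.

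Of 15 other Krüppel-like factor genes, 11 were tested, and the median log2 difference was 0.15. Taken alone, KO replicate 1 gave 0.15 and KO replicate 2 gave 0.00. KLF9 was higher at an unadjusted p under 0.05, with 4.97 and 6.40 FPKM in KO and 2.98 and 3.54 FPKM in EV libraries (log2 difference 0.65, SE 0.150, limma adjusted p = 0.208). KLF6 had 29.3 and 18.9 FPKM in KO and 19.9 and 19.1 FPKM in EV libraries, so KO replicate 1 alone stood apart.

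Of 20 other gut lineage factors, 10 were tested, and an unadjusted p under 0.05 fell on 2 higher genes and 1 lower gene. PPARG, a nuclear receptor of adipocytes and colonocytes, had 20.8 and 16.1 FPKM in KO and 11.5 and 10.2 FPKM in EV libraries (log2 difference 0.70, limma adjusted p = 0.190). EHF, an epithelial ETS factor, had 10.2 and 9.11 FPKM in KO and 11.8 and 12.4 FPKM in EV libraries.

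Some factors of this list lay under the minimum level and are named after their values were seen. FOXA2, a forkhead factor of endoderm, had 0.627 and 1.38 FPKM in KO and 0.187 and 0.0909 FPKM in EV libraries. PDX1, a factor of the foregut and pancreas, had 0.861 and 1.04 FPKM in KO and 0.319 and 0.282 FPKM in EV libraries. For both genes the groups did not overlap, but 26.5% of tested genes also lay higher in both KO libraries. The FOXA2 values rest on about 19 and 43 fragments in KO and 6 and 3 in EV libraries. Those of PDX1 rest on about 27 and 34 fragments in KO and 10 and 9 in EV libraries.

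Genes of the differentiated intestine were mostly silent in both groups. Of 36 of them, many reported as CDX2 or HNF4A targets, 14 were listed at 0 in all libraries, among them FABP1, SI, ALPI, GUCY2C, TFF3 and APOB, and 3 were tested. DPP4, a brush border peptidase gene, had 1.12 and 2.18 FPKM in KO and 0.316 and 0.380 FPKM in EV libraries. It reached the minimum level through the KO libraries alone, so it had to differ. Its difference had an unadjusted p under 0.05 (0.95, SE 0.234, limma adjusted p = 0.209). CA2, a carbonic anhydrase gene, had 29.4 and 26.7 FPKM in KO and 32.3 and 32.7 FPKM in EV libraries, and KRT20, a keratin of differentiated colon cells, had 1.23 and 1.15 FPKM in KO and 1.80 and 1.63 FPKM in EV libraries. MTTP and A1CF, known from liver and gut as genes under HNF4A, had at most 0.129 FPKM in any library, so the low HNF4A value of KO replicate 1 could not be followed in them at this depth.

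Of 12 secretory lineage factors, 3 were tested and 0 had an unadjusted p under 0.05. HES1, which represses the secretory fate downstream of Notch, had 24.5 and 14 FPKM in KO and 13.5 and 14.1 FPKM in EV libraries, so KO replicate 1 stood apart and KO replicate 2 did not. ATOH1, the master factor of that fate, had 0.170 and 0.0824 FPKM in KO libraries and was listed at 0 in EV libraries. Its KO values are worth about 5 and 2 fragments, too few to tell the groups apart. Of 12 pluripotency network genes, a network to which KLF4 and TBX3 are linked in mouse embryonic stem cells, 2 were tested and 0 had an unadjusted p under 0.05. TFCP2L1 had 2.71 and 2.49 FPKM in KO and 1.95 and 2.06 FPKM in EV libraries. MYC had 123 and 227 FPKM in KO and 203 and 187 FPKM in EV libraries, with KO replicate 1 lowest and KO replicate 2 highest of the 4.

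**Figure D4:**
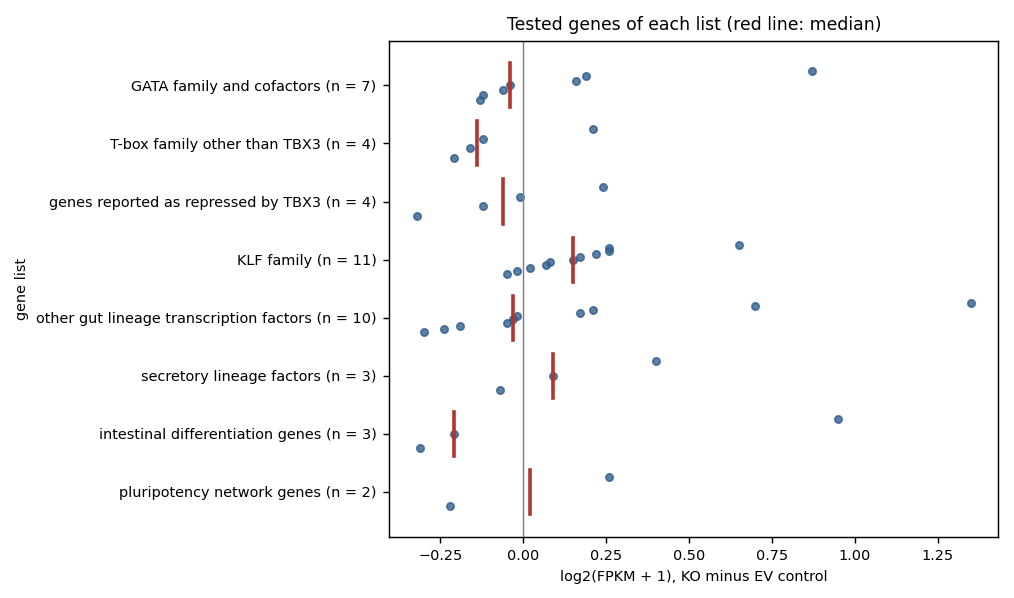
Difference between KO and EV cells for each tested gene of the 8 lists (x axis: log2(FPKM + 1), KO minus EV; y axis: list, with its number of tested genes; red lines: list medians). The medians lie between -0.21 and 0.15, and DPP4 at 0.95 and LMO2 at 0.87 are among the points furthest right.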

How the data were processed

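The authors deposited 1 FPKM value for each gene symbol and library. Per the submitters' processing notes, the tools were Cuffnorm 2.2.1, SAMtools 0.1.19, Bowtie2 2.2.3 and TopHat2 2.0.13, and the build was hg19. Annotation, strand use and any scaling across libraries were not given in the sources used here. Groups were taken from the labels. Values were used as deposited and transformed to log2(FPKM + 1), which understates the change of low genes. Genes with at least 1 FPKM in at least 2 of 4 libraries (12701 of 26255) were tested in limma 3.58.1 (lmFit, eBayes with a mean-variance trend, 2.82 prior degrees of freedom) in R 4.3.3, with group as the sole term, two-sided, with Benjamini-Hochberg adjustment and a threshold of 0.05. The code was tested on simulated data.

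The value of 1 fragment per kilobase was taken from genes with a single transcript of 1000 to 6000 nt (GENCODE release 29) as the median of FPKM times length between 0.06 and 0.1, hence 12.47, 12.85, 12.99 and 13.39 M fragments in KO 1, KO 2, EV 1 and EV 2. The window bounds this estimate, and fragment numbers of a gene also depend on the transcript length assumed.

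The 9 genes and the 8 lists were chosen with earlier results of these data known. Named were the 9 genes, the targeted gene, the 5 genes most similar to GATA2 and to TBX3 (small RNA genes and unnamed loci left out) and, in each list, the 4 genes or fewer of smallest p-value, of which some are given by list counts alone. Other list genes, the markers and the antisense genes were named after their values were seen. A few list genes that the rule covers are not reported here. Alternatives were other pseudocounts, filters, scalings and variance models, a replicate block, a fit without small RNA genes and leaving out each library. Coordinates are those of GRCh38.p14 and were used for the sequences only, the FPKM being on hg19.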

Additional observations from a re-analysis of the deposited data

How the results depend on the processing

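Of the 7 tested members, GATA2, GATA6, TBX3 and KLF4 kept their sign in each alternative run, with log2 differences of -1.80 to -1.49, 0.36 to 0.72, -1.73 to -1.24 and -0.30 to -0.10. HNF4A ranged from -1.17 to 0.11 and KLF5 from -0.01 to 0.26, both turning sign without KO replicate 1, and CDX2 ranged from -0.18 to 0.13. GATA2 passed in 9 of the alternatives named above and did not in the other 4 given with its values. The 7 higher and 7 lower genes called became 3 and 3 without a filter on low values, 0 and 0 without small RNA genes (2171 genes at an unadjusted p under 0.05), 3 and 5 in limma without the trend, and 6 and 4 with quantile normalization. With a replicate block they were 4 and 8. The labels do not say whether replicate numbers pair the libraries. The replicate differences in KO and EV had a correlation of -0.00455 over genes, a single value that cannot decide it. Leaving out a library gave 6 to 1381 higher and 5 to 881 lower genes, the largest where a lone KO library is assumed to vary like the EV libraries. The 5 higher and 1 lower list genes at an unadjusted p under 0.05 became 10 and 6 without a filter, 1 and 1 with a filter at 5 FPKM, 5 and 2 with quantile normalization, 6 and 2 without the trend, 5 and 0 with the replicate block, and 5 to 12 higher and 0 to 7 lower on leaving out a library. The filters change which genes are tested; for the other settings the cause was not tested. Members near 1 FPKM or under it (GATA3, GATA6, HNF4A) are limited by depth, at under 100 fragments a library. GATA2 in both KO libraries (about 74 and 78 fragments) and TBX3 in KO replicate 2 (about 86) were under 100 as well.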
